A study of Homo sapiens with 12 samples.

Results

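The small RNA silencing machinery was followed across AC16 libraries as 10 genes: the nuclear processing pair DROSHA and DGCR8, the exporter XPO5, the cytoplasmic nuclease DICER1, the Argonautes AGO1 to AGO4, and the Argonaute partners TNRC6A and TNRC6B. They were matched by symbol in the deposited tables of 17197 genes, and all 10 were among the 13171 genes abundant enough to test. AC16 is an established human line, a fusion of ventricular heart cells and an immortal fibroblast line. The 12 libraries formed 4 groups of 3: EP300 siRNA with hydrogen peroxide (siEP300.H2O2), negative control siRNA with hydrogen peroxide (siNC.H2O2), EP300 siRNA alone (siEP300) and negative control siRNA alone (siNC). EP300 encodes p300, a lysine acetyltransferase that acts as a transcriptional coactivator. Per the labels' protocols, siRNAs were delivered with jetPRIME in medium without serum, the oxidant (200 mM as labelled, a unit that is uncertain) was given 12 h later for 1 h, and RNA was taken 48 h after return to complete medium. All 4 groups therefore carried a transfected siRNA, which itself enters the silencing pathway, and untransfected cells were not analysed here.

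As background, a primary microRNA (miRNA) transcript is cut in the nucleus by the Microprocessor, in which DROSHA is the nuclease and DGCR8 the RNA-binding partner. The hairpin leaves the nucleus on XPO5 bound to RAN-GTP, and DICER1 trims it to a short duplex. An Argonaute keeps 1 strand as a guide, and TNRC6 proteins (the GW182 family) link it to deadenylation and decapping of the target mRNA. Transfected siRNAs bypass the nuclear steps and load directly. The libraries report the mRNAs of these proteins; mature miRNAs and proteins were not measured.

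The labels carried a conflict that bears on every comparison. The titles name EP300 as the siRNA target, and a treatment field of the same samples names MLF1. EP300 had 30.1, 26.9 and 26.5 CPM (counts scaled to the library total, with TMM) in the siEP300.H2O2 libraries and 59.9, 80.4 and 89.9 CPM in the siNC.H2O2 libraries. It had 36.3, 36.8 and 36.7 CPM in siEP300, against 101, 69.1 and 80.1 CPM in siNC. EP300 was thus lower in every library given its siRNA (log2 fold change -1.46 ± 0.14 with H2O2 and -1.19 ± 0.14 without; SE, n = 3 per group). MLF1 changed by -0.29 and -0.22 in the same comparisons. Its falls were also under an adjusted p of 0.05 (0.000686 with H2O2 and 0.00519 without, edgeR), and its libraries did not overlap. The fall of EP300 was the larger, so the groups are called by EP300 as in the titles.

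Totals of estimated counts ran from 16081437 to 19033679 per library. Of 14 cardiomyocyte markers in the table, 11 were under 1 CPM in all 12 libraries, among them TNNT2, MYH6, MYH7 and MYL2. NPPB (35.3 to 62.4 CPM), GATA4 and DES were detected. The 10 fibroblast markers summed to 7594 to 8007 CPM in siEP300.H2O2, 9238 to 9708 in siNC.H2O2, 9581 to 9858 in siEP300 and 9029 to 9318 in siNC, and their part in the results below was not tested. Cardiomyocyte markers summed to 47.0 to 54.9 CPM in siEP300.H2O2 and 63.5 to 79.4 CPM in siNC.H2O2, and to 45.7 to 48.5 CPM in siEP300 and 59.8 to 61.9 CPM in siNC. Endothelial markers summed to 2.97 to 4.3005 CPM in siEP300.H2O2 and 9.74 to 11.3 CPM in siNC.H2O2, and to 4.797 to 5.68 CPM in siEP300 and 8.39 to 10.3 CPM in siNC, with CDH5 and ERG at most 0.0572 CPM. Most of the cardiomyocyte sum was NPPB. In the endothelial list only KDR (1.99 to 7.81 CPM) and TIE1 (0.27 to 5.33 CPM) exceeded 1 CPM in any library. Epithelial markers summed to 1.94 to 2.32 CPM in siEP300.H2O2 and 2.76 to 3.45 CPM in siNC.H2O2. Without H2O2 they summed to 2.15 to 2.24 CPM in siEP300 and 3.43 to 4.03 CPM in siNC. The cardiomyocyte, endothelial and epithelial sums were thus lower with EP300 siRNA, and their part in the results was not tested. Leukocyte markers summed to 68.2 to 80.8 CPM in siEP300.H2O2 and 34.5 to 54.9 CPM in the other groups, most of it CD68, with PTPRC at most 0.754 CPM. In bulk libraries fewer cells of a type and less RNA per cell cannot be told apart. Along the main axis of spread within groups, which held 28.6% of the within-group variance, siNC replicate 1, siEP300.H2O2 replicate 10 and siNC.H2O2 replicate 9 stood at 17.6, 15.8 and 12.1. The opposite end held siNC.H2O2 replicate 7, siNC replicate 2 and siEP300.H2O2 replicate 11, at -13.9, -11.4 and -10.1. Across 12595 genes the loading on that axis had a rank correlation of 0.71 with gene length, so long transcripts were high in the first 3 libraries. Whether replicate libraries are separate cultures is not in the labels, and the p-values therefore cover library-to-library spread, which may be technical.

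Levels were compared between genes per length. Over the 12 libraries DROSHA averaged 25.8 FPKM (fragments scaled to gene length and library total, as deposited), XPO5 19.6, TNRC6A 18.7 and DGCR8 16.2. DICER1 averaged 9.79 FPKM, AGO2 6.54, AGO1 5.40, AGO3 3.89, TNRC6B 3.41 and AGO4 3.32. DROSHA was above 71.6% of the genes tested and AGO4 above 25.8%. DROSHA ranked at the top in all 4 groups, and overlapped its next neighbour, TNRC6A, in siNC only. XPO5 and TNRC6A overlapped in siNC.H2O2 and siNC and were apart in siEP300.H2O2 (18.7 ± 0.55 and 14.2 ± 1.96 FPKM; SD, n = 3). AGO3, TNRC6B and AGO4 were the lowest 3 in each group, and neighbours among them overlapped except AGO3 and TNRC6B in siEP300.H2O2. Raw estimated counts of the 10 genes ran from 266 (AGO4) to 3785 (TNRC6A) per library.

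EP300 siRNA lowered DICER1, TNRC6A and XPO5 mRNA and raised DROSHA, DGCR8 and AGO3 mRNA, with and without H2O2. The AGO3 rise in both comparisons, and those of DROSHA and DGCR8 without H2O2, were not called from the deposited FPKM, and AGO3 was not called either once a trend on gene length was removed. The largest of these were falls of TNRC6A to 65.2% and DICER1 to 68.4% of siNC.H2O2, and the 3 rises were of 1.27-fold or less with H2O2. Differences were tested with edgeR's quasi-likelihood test on all 12 libraries with Benjamini-Hochberg adjustment over the 13171 genes, and an adjusted p under 0.05 was a call. With H2O2, 7 of the 10 genes were called, 4 higher (AGO1 joining the 3 above) and 3 lower, where 59% of all genes tested were called, 28.4% higher and 30.6% lower. Without H2O2, 6 of 10 were called, 3 in each direction, where 61.5% of all genes were called, 30.1% higher and 31.4% lower. The counts of called genes in this main fit were thus near the background. The median over the 10 genes was -0.06 with H2O2 and -0.02 without, against -0.02 and -0.00 over all genes tested. With the length trend removed, 8 of 10 were called in each comparison, 2 higher (DROSHA and DGCR8) and 6 lower. That setting called 4251 of the 13171 genes higher and 4364 lower with H2O2, and 4392 and 4413 without. The 6 lower of 10 thus stood above the share of all genes called lower there.

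**Figure D1:**
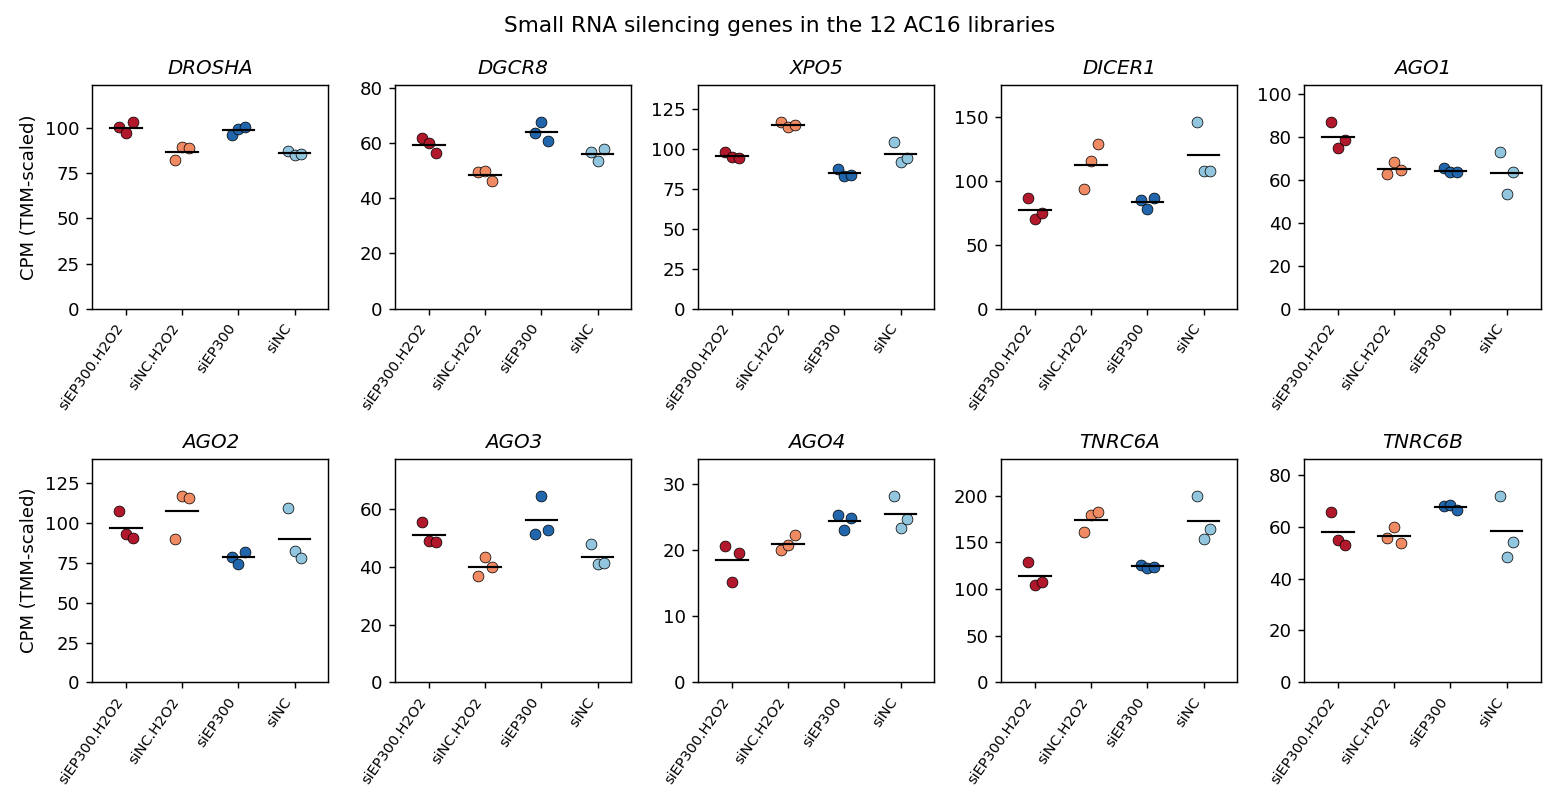
Level of each of the 10 genes in each of the 12 libraries, in CPM on linear axes from 0; points are libraries (n = 3 per group) and bars are group means. DICER1 and TNRC6A sit lower in both EP300 siRNA groups than in the matching control groups (for TNRC6A 104 to 129 CPM in siEP300.H2O2, against 161 to 183 CPM in siNC.H2O2), while AGO2 and TNRC6B overlap between them.

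DROSHA (chr5:31400497-31532196, minus strand, GRCh38), the nuclease that frees the hairpin, had 101, 97.1 and 103 CPM in siEP300.H2O2, against 82.3, 89.3 and 89.3 CPM in siNC.H2O2. It had 96.4, 99.7 and 101 CPM in siEP300, against 87.2, 85.3 and 85.8 CPM in siNC. All 6 libraries with EP300 siRNA were above all 6 without it. DROSHA rose by a log2 fold change of 0.21 ± 0.05 with H2O2 (adjusted p = 0.0032, edgeR) and 0.20 ± 0.05 without (adjusted p = 0.0037).

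DGCR8 (chr22:20080232-20111877, plus strand), which anchors the hairpin for DROSHA, had 62.0, 59.8 and 56.3 CPM in siEP300.H2O2, against 49.3, 49.9 and 46.2 CPM in siNC.H2O2. Without the oxidant it had 63.6, 67.5 and 60.8 CPM in siEP300, against 56.9, 53.6 and 57.7 CPM in siNC. The groups did not overlap in either pair. DGCR8 rose by 0.29 ± 0.06 with H2O2 (adjusted p = 0.000968, edgeR) and by 0.19 ± 0.06 without (adjusted p = 0.0146). The difference between those effects was 0.10 (95% interval -0.09 to 0.29). The exons of DGCR8 also hold the hairpins of MIR3618 and MIR1306 on the same strand, and the Microprocessor is known to cut hairpins in the DGCR8 transcript itself. The mature miR-3618, from RefSeq (GRCh38.p14, chr22:20085797-20085818), is shown with its seed, bases 2 to 8, in capitals.
miR-3618: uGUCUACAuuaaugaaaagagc

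The rises of this pair depended on the unit without H2O2. From the deposited FPKM (log2 of FPKM + 1, limma), DROSHA differed by 0.03 and DGCR8 by 0.04 between siEP300 and siNC, and neither was called. The median over all genes tested was also lower from FPKM in that comparison, -0.048 against -0.004 from counts, and its part was not tested. With H2O2 both were called from FPKM as well, at 0.14 and 0.22. DGCR8 without H2O2 also lost its call when siNC replicate 2 or siEP300 replicate 5 was left out, with the difference between 0.15 and 0.23 over all libraries left out in turn. DGCR8 shares 526 exonic bases with the antisense gene AC006547.2, and the strand setting of the counting is not given in the sources used here.

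XPO5 (chr6:43522330-43576075, minus strand), the exporter of the hairpin, had 98.1, 94.9 and 94.6 CPM in siEP300.H2O2, against 117, 114 and 115 CPM in siNC.H2O2. It had 87.8, 83.5 and 84.1 CPM in siEP300, against 105, 91.9 and 94.5 CPM in siNC. Neither pair of groups overlapped. XPO5 fell by 0.27 on the log2 scale with H2O2 (SE 0.06, adjusted p = 0.000847, edgeR) and by 0.19 without (SE 0.06, adjusted p = 0.00897). The call without H2O2 was lost without siNC replicate 1, the highest siNC library (-0.13, adjusted p = 0.0535). XPO5 shares 348 exonic bases with POLR1C on the opposite strand.

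DICER1 (chr14:95086228-95158010, minus strand), the nuclease that makes the duplex, had 86.4, 69.9 and 74.8 CPM in siEP300.H2O2, against 93.5, 116 and 129 CPM in siNC.H2O2. It had 85.0, 78.2 and 86.7 CPM in siEP300, against 146, 107 and 108 CPM in siNC. The highest EP300 siRNA library thus stayed below the lowest control library in both pairs. DICER1 fell by 0.55 with H2O2 (SE 0.13, adjusted p = 0.00175, edgeR) and by 0.53 without (SE 0.13, adjusted p = 0.00195). The spread among control libraries was wide, and siNC replicate 1 was the highest; without it the difference was -0.37 and still called. Over the 21 alternatives run in each comparison the fall was called every time, from -0.37 to -0.77 without H2O2 and from -0.44 to -0.70 with it. DICER1 shares 80 exonic bases with its antisense gene DICER1-AS1.

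TNRC6A (chr16:24610209-24827632, plus strand), a GW182 scaffold that Argonautes recruit, had 129, 104 and 108 CPM in siEP300.H2O2, against 161, 179.7 and 183 CPM in siNC.H2O2. It had 126, 123 and 124 CPM in siEP300, against 199.8, 154 and 165 CPM in siNC. No library with EP300 siRNA reached the level of any control library. TNRC6A fell by 0.62 with H2O2 (SE 0.09, adjusted p = 4.94e-05, edgeR) and by 0.48 without (SE 0.09, adjusted p = 0.000468), and by 0.35 to 0.73 over all alternatives run in both. The effects with and without H2O2 differed by -0.14 (95% interval -0.43 to 0.14).

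TNRC6B (chr22:40044817-40335808, plus strand), a second GW182 scaffold, did not follow TNRC6A. It had 65.8, 54.9 and 53.0 CPM in siEP300.H2O2, against 55.5, 59.97 and 53.7 CPM in siNC.H2O2. Without H2O2 it had 68.1, 68.2 and 66.4 CPM in siEP300, against 71.8, 48.4 and 54.2 CPM in siNC. The groups overlapped, and neither difference was called: 0.04 (95% interval -0.21 to 0.29) with H2O2 and 0.22 (-0.03 to 0.46) without. Without siNC replicate 1, the highest siNC library, the difference without H2O2 was 0.40 and called (adjusted p = 0.0011). The sign of TNRC6B changed with the correction for gene length described below.

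The sequences upstream of the starts of DICER1 and TNRC6A, which fell, and of DROSHA and DGCR8, which rose, are shown so that both pairs can be read side by side. They are the 250 bases before each RefSeq start (GRCh38.p14), 5' to 3' on the strand of the gene, ending where an annotated exon begins; RefSeq promoters were found for 9 of the 10 genes. The DICER1 and TNRC6A windows lie inside the GENCODE spans given above, so transcripts of these genes with starts further upstream are also annotated. Capitals mark matches, on either strand, to 4 motifs. The GC box was searched as GGGCGG and the CCAAT box by the letters of its name. For factors of the ETS family the letters were CCGGAAG. For the factor YY1 they were AAGATGG, and no 2 matches overlapped. The windows printed are chr14:95157530-95157779 (minus strand), chr16:24729401-24729650 (plus), chr5:31532197-31532343 (minus) and chr22:20079991-20080231 (plus).
DICER1: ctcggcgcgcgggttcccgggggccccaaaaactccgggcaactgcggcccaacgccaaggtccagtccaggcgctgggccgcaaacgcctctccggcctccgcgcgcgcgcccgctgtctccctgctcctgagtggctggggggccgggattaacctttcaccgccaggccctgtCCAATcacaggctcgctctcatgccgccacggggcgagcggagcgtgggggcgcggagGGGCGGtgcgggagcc
TNRC6A: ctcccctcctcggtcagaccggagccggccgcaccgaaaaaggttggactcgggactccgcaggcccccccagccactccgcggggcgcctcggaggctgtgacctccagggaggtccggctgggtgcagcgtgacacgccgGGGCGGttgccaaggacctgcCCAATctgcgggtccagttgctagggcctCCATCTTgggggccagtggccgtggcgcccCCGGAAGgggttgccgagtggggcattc
DROSHA: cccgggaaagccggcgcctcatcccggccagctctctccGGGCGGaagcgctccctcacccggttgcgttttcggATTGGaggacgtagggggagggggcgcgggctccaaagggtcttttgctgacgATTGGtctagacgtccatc
DGCR8: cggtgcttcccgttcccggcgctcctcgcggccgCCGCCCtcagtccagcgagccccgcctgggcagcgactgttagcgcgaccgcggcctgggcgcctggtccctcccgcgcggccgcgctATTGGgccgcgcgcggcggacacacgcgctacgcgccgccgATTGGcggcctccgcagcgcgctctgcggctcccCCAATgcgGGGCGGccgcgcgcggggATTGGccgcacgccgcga

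All 4 printed windows held a CCAAT box and a GC box. CCAAT was found once in DICER1 and TNRC6A, 2 times in the DROSHA stretch (3 in its full 250 bases) and 4 times in DGCR8, and 32.0% of 35116 RefSeq windows of 250 bases held it. The GC box was in 42.6% of them. TNRC6A alone of the 4 held the ETS motif (8.52% of windows) and the YY1 motif (3.70%). Among the other members with a window, AGO1 and TNRC6B held both boxes, AGO3 and XPO5 only the GC box, and AGO4 neither. The ETS motif was also in the AGO3 and TNRC6B windows. Matches to an E-box (CACGTG), a CRE (TGACGTCA), a TATA box (TATAAA) and an AP-1 motif (TGANTCA) were not in these 4 windows. The 250-base windows of DICER1, TNRC6A, DROSHA and DGCR8 were 74.0%, 71.6%, 62.0% and 80.0% G and C, against a median of 58.0% over all windows. A match is a string of letters and was not tested for binding.

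Of the Argonautes, AGO3 rose with EP300 siRNA in both settings and AGO1 was called with H2O2 and not without it, while AGO2 and AGO4 were not called. AGO4, AGO1 and AGO3 lie in that order on the plus strand of chromosome 1 (chr1:35808172-35857890, chr1:35869808-35930528 and chr1:35930718-36072500), and AGO2, the Argonaute best known for cutting its targets, lies on chromosome 8. AGO3 had 55.6, 48.9 and 48.6 CPM in siEP300.H2O2, against 36.9, 43.4 and 40.1 CPM in siNC.H2O2. It had 51.5, 64.7 and 52.8 CPM in siEP300, against 48.1, 41.1 and 41.5 CPM in siNC. The groups were apart in both pairs, with log2 fold changes of 0.35 ± 0.10 with H2O2 (adjusted p = 0.00616, edgeR) and 0.37 ± 0.10 without (adjusted p = 0.00356). Neither was called from FPKM (0.12 and 0.17) or with the length trend removed (0.17 and 0.07).

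AGO1 had 87.0, 74.8 and 79.0 CPM in siEP300.H2O2, against 62.9, 68.3 and 64.9 CPM in siNC.H2O2. It had 65.5, 63.9 and 63.7 CPM in siEP300, against 73.1, 53.4 and 63.9 CPM in siNC. The siEP300.H2O2 libraries were the highest of the 12. AGO1 differed by 0.30 ± 0.09 with H2O2 (adjusted p = 0.011, edgeR) and by 0.02 ± 0.09 without (adjusted p = 0.854). The difference of the effects, 0.28 (95% interval 0.00 to 0.55), had an unadjusted p of 0.0489 and an adjusted p of 0.294. AGO1 without H2O2 was -0.27 with the gene length trend removed, and called there (adjusted p = 0.000283). The call with H2O2 was lost with that correction (0.11, adjusted p = 0.0869) and from FPKM without a filter. It was also lost without siEP300.H2O2 replicate 10, the highest library (0.23).

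The counts of AGO1 and AGO3 were not whole numbers in any of the 12 libraries, while those of the other 8 genes were whole in all of them. Their sum was whole within 0.02 in 7 of the 12 libraries, so the counting divided some reads between these paralogs and the split of each is uncertain. In the rest the sum was 0.15 to 0.40 from a whole number, so there it did not account for every divided read. Summed, AGO1 and AGO3 came to 131 ± 9.99 CPM in siEP300.H2O2 and 106 ± 5.96 CPM in siNC.H2O2 (SD, n = 3 each). They came to 121 ± 6.77 CPM in siEP300 and 107 ± 13.4 CPM in siNC. The sum, an alternative chosen after seeing the data, rose by 0.32 ± 0.08 with H2O2 (adjusted p = 0.00472, edgeR) and was not called without it (0.17 ± 0.08, adjusted p = 0.086). The interaction of the sum was 0.14 ± 0.12 (adjusted p = 0.629).

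AGO2 had 107, 92.7 and 90.8 CPM in siEP300.H2O2, against 90.1, 117 and 116 CPM in siNC.H2O2. It had 78.9, 74.5 and 81.8 CPM in siEP300, against 109, 82.2 and 78.2 CPM in siNC. Libraries of the compared groups overlapped, and the differences of -0.15 (95% interval -0.40 to 0.10) and -0.20 (-0.45 to 0.06) were not called. AGO4 averaged the lowest FPKM of the Argonautes over the 12 libraries, though in siNC the AGO3 mean was lower. AGO4 had 20.6, 15.2 and 19.6 CPM in siEP300.H2O2, against 20.0, 20.7 and 22.2 CPM in siNC.H2O2. It had 25.3, 23.1 and 24.8 CPM in siEP300, against 28.2, 23.3 and 24.7 CPM in siNC, and neither difference was called (-0.18 and -0.06). With the length trend removed both were called lower, at -0.28 with H2O2 (adjusted p = 0.0042) and -0.21 without (adjusted p = 0.0139).

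**Figure D2:**
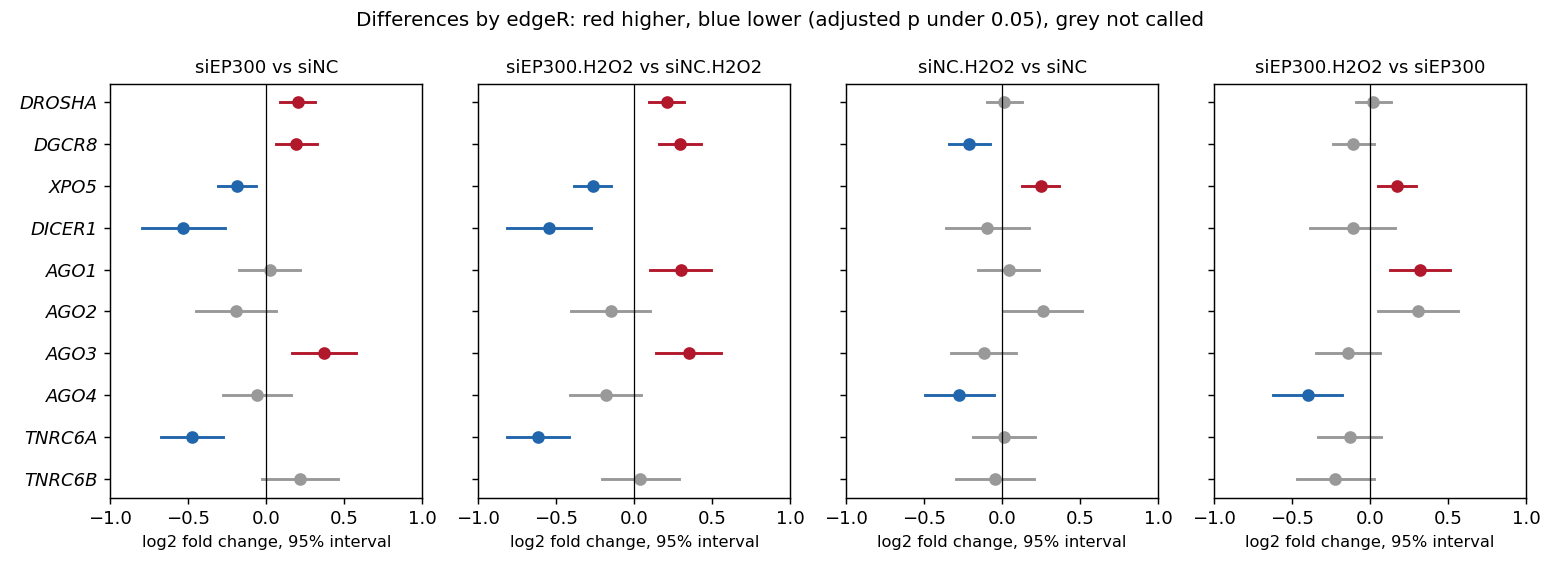
Log2 fold change of the 10 genes in the 4 comparisons of groups, by edgeR over all 12 libraries (3 per group); lines are 95% intervals, red is called higher, blue called lower and grey not called. DICER1 and TNRC6A lie furthest left in both EP300 siRNA comparisons (-0.55 and -0.62 with H2O2), and in the H2O2 comparisons most genes straddle 0.

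The make-up of the Argonaute pool was compared per length, as the share of each gene in the summed FPKM of AGO1 to AGO4. The sum itself was 19.6 ± 1.42 FPKM in siEP300.H2O2, 19.2 ± 1.38 in siNC.H2O2, 18.4 ± 0.29 in siEP300 and 19.3 ± 2.77 in siNC (SD, n = 3 each). AGO2 made up 33.8% ± 1.19 in siEP300.H2O2, 38.7% ± 3.46 in siNC.H2O2, 29.7% ± 1.63 in siEP300 and 34.0% ± 2.10 in siNC. Its share was thus different by -4.86 points with EP300 siRNA under H2O2 and by -4.31 points without H2O2. AGO1 made up 31.7% ± 0.56 in siEP300.H2O2 and between 26.6% and 27.5% in the other groups. AGO3 made up 20.6% ± 1.83 in siEP300.H2O2 and 19.0% ± 2.88 in siNC.H2O2, against 23.0% ± 3.37 in siEP300 and 18.9% ± 1.21 in siNC. The shares of AGO1 and AGO3 rest on the uncertain split of reads between them. AGO4 made up 13.8% ± 1.47 in siEP300.H2O2 and 15.8% ± 1.10 in siNC.H2O2, against 19.7% ± 1.18 in siEP300 and 20.1% ± 1.09 in siNC. Of the 16 two-sided exact permutation tests on shares, 6 reached 0.1, the smallest p that 3 against 3 allows, and the smallest adjusted p was 0.267. This test could therefore not pass 0.05 for any share, and no fit over all 4 groups was made.

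**Figure D3:**
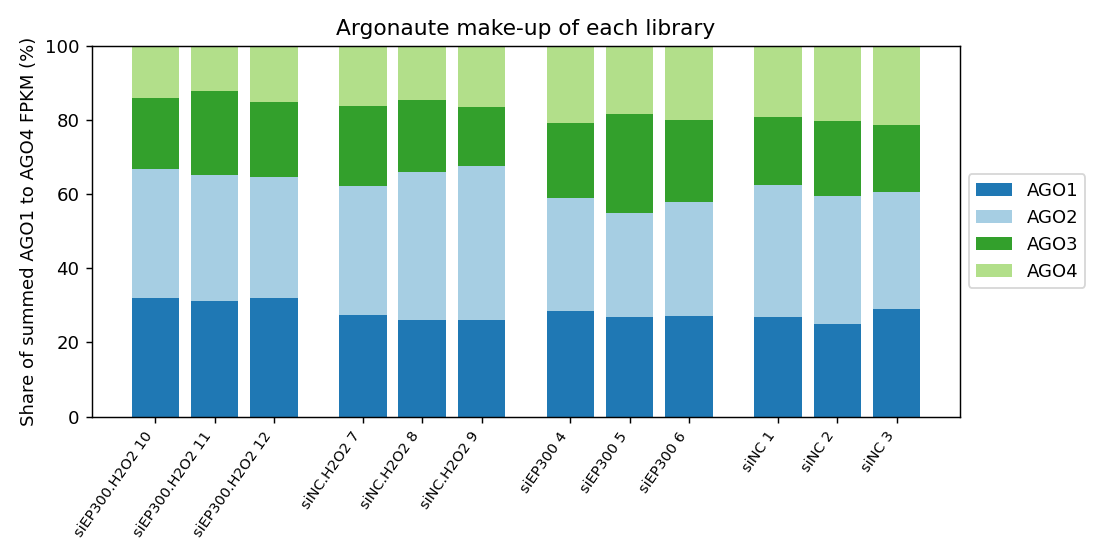
Share of AGO1 to AGO4 in their summed FPKM, in percent, with a stacked bar for each of the 12 libraries. AGO1 takes 31.1% to 32.1% in the siEP300.H2O2 libraries and 24.9% to 28.9% in the other 9, and AGO4 takes less in the libraries with H2O2 (12.2% to 16.6%) than in those without (18.5% to 21.2%). The split of reads between AGO1 and AGO3 is uncertain.

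H2O2 left most of the machinery uncalled. With control siRNA, XPO5 rose and AGO4 and DGCR8 fell, 3 of 10 genes where 35.3% of all genes were called, 17.8% higher and 17.4% lower. With EP300 siRNA, AGO1 and XPO5 rose and AGO4 fell, again 3 of 10, where 31.1% of all genes were called, 15.9% higher and 15.1% lower. The median over the 10 genes was -0.02 with control siRNA and -0.11 with EP300 siRNA, against -0.01 and -0.00 over all genes. All these comparisons share groups with the EP300 siRNA comparisons.

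XPO5 rose by 0.25 ± 0.06 between siNC.H2O2 and siNC (adjusted p = 0.00311, edgeR) and by 0.17 ± 0.06 between siEP300.H2O2 and siEP300 (adjusted p = 0.0311). The first was called in all 21 alternatives and the second in 12. The second call was lost from FPKM (0.13 at pseudocount 1) and with no filter on low counts. It was also lost without siEP300 replicate 5 or 6 or siEP300.H2O2 replicate 10, 11 or 12 (0.15 to 0.19). AGO4 fell by 0.40 in siEP300.H2O2 against siEP300 (SE 0.10, adjusted p = 0.00925) and by 0.27 in siNC.H2O2 against siNC (SE 0.10, adjusted p = 0.0497). The second lay at the threshold and was called in 11 of 21 alternatives. It was lost with DESeq2 size factors in edgeR and with only the groups compared in the fit. It was also lost without siNC replicate 1 or 3, siNC.H2O2 replicate 7 or 8, siEP300 replicate 4, 5 or 6, or siEP300.H2O2 replicate 12. Without siNC replicate 1 it was -0.19. DGCR8 fell by 0.21 with control siRNA (SE 0.06, adjusted p = 0.0173) and was not called with EP300 siRNA (-0.11, adjusted p = 0.2). The DGCR8 call was lost with only the groups compared in the fit, and without siNC replicate 3 or siNC.H2O2 replicate 9.

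AGO1 rose by 0.32 ± 0.09 in siEP300.H2O2 against siEP300 (adjusted p = 0.0152, edgeR), and the call was lost without siEP300.H2O2 replicate 10 (0.26) and from FPKM (0.25). In siNC.H2O2 against siNC it differed by 0.04 (95% interval -0.15 to 0.24). AGO2 was not called, at 0.31 (0.05 to 0.56) with EP300 siRNA and 0.26 (0.01 to 0.51) with control siRNA, but 6 and 4 of 21 alternatives called it higher. Without siNC replicate 1 or siNC.H2O2 replicate 7, AGO2 was called with both siRNAs, at 0.42 and 0.37 with control siRNA and 0.30 in each case with EP300 siRNA. TNRC6B differed by -0.22 with EP300 siRNA, called in 3 of 21 alternatives, including that without siNC replicate 1. DICER1 differed by -0.11 with EP300 siRNA and -0.10 with control siRNA, and TNRC6A by -0.13 and 0.01, none of them called. DROSHA differed by 0.02 and 0.01, with intervals of -0.09 to 0.13 and -0.10 to 0.13.

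The interaction asks whether the EP300 siRNA effect differed with H2O2 present. None of the 10 genes was called, with edgeR or with DESeq2, where edgeR called 3.33% of all genes, 1.12% higher and 2.21% lower. At an unadjusted p under 0.05 there was 1 with each tool, AGO1 with edgeR. Intervals of the difference in effect reached from -0.40 to 0.36 for DICER1 and from -0.15 to 0.16 for DROSHA, so differences of that size were not detectable here.

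Processing changed which smaller effects were called. Removing the trend of each library's log ratio on gene length made the EP300 siRNA differences of long genes more negative. AGO2, whose length worked out from counts and FPKM was 14243 bases, then stood at -0.35 with H2O2 and -0.51 without, both called. For AGO3 the difference shrank to 0.17 and 0.07, not called, and for TNRC6B it turned to -0.20 (called) and -0.14. DICER1 and TNRC6A moved to -0.70 and -0.73 with H2O2 and to -0.77 and -0.66 without.

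**Figure D4:**
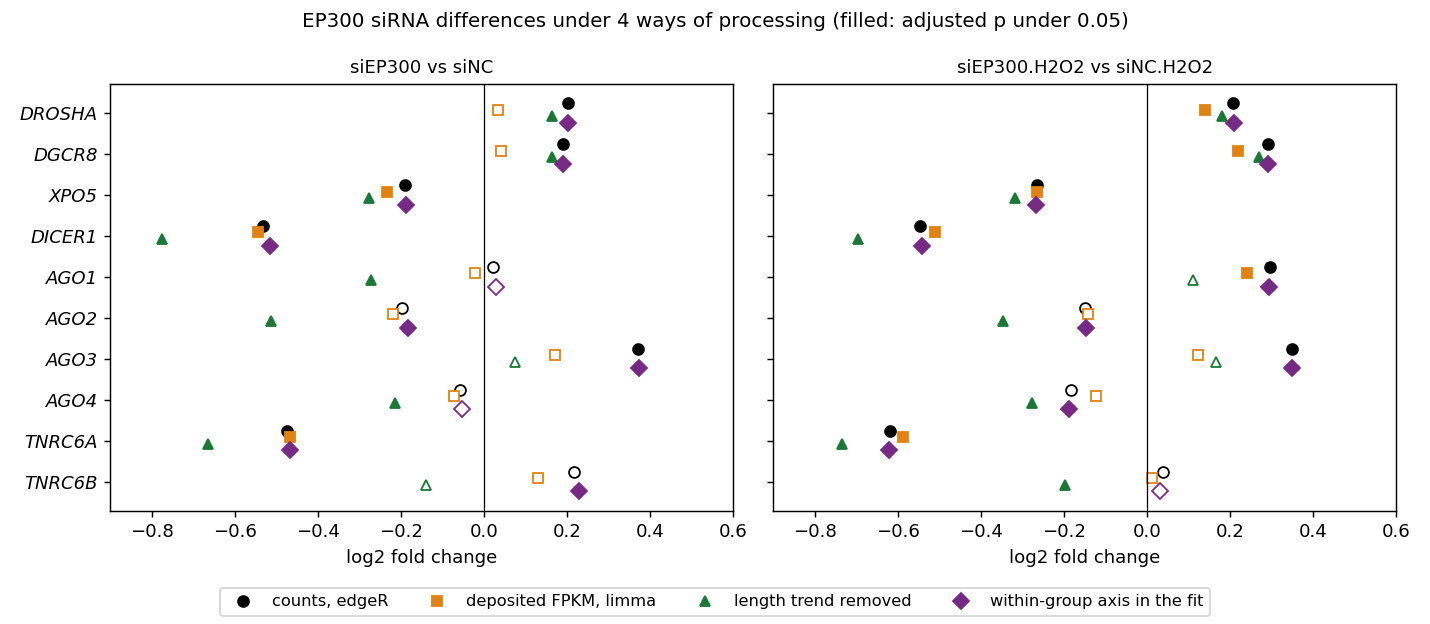
Log2 fold change of the 10 genes for EP300 siRNA with and without H2O2 under 4 ways of processing, with filled symbols where the adjusted p was under 0.05. DICER1, TNRC6A and XPO5 are filled on the left throughout, whereas AGO1 without H2O2 runs from 0.03 with the within-group axis in the fit to -0.27 with the length trend removed.

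Genes with group patterns most like each member were sought among 10626 genes of at least 5 CPM, by the largest difference between the 4 centred group means on the log2 CPM scale. The closest to DICER1 were HIPK3 and TPI1, and the closest to TNRC6A were ANKZF1 and RFFL. DROSHA was matched by RO60 and TRIM27, DGCR8 by SUZ12, and XPO5 by ADARB1 and PARD3. AGO1 was matched by LCAT and NDUFA8, AGO2 by GRB2 and PHB, AGO3 by GSTCD and DDX39B, AGO4 by JAK3 and ATG10, and TNRC6B by ZC3H4 and CLOCK. The largest difference was between 0.01 and 0.03, over 4 group means, where the members themselves ranged by 0.22 to 0.63. ADARB1, nearest to XPO5, encodes an editor of double-stranded RNA.

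The partners of the machinery were described from 9 lists, and their counts stand against 28.4% of all genes called higher and 30.6% lower with H2O2, and 30.1% higher and 31.4% lower without. Of 17 Microprocessor cofactors, 5 rose and 4 fell with EP300 siRNA and H2O2, and 3 rose and 5 fell without, near those shares of all genes. NCBP2, a subunit of the nuclear cap-binding complex, fell by 0.61 and 0.58. HNRNPA2B1, an RNA-binding protein that marks some primary miRNAs, had 876 ± 28.1 CPM in siEP300.H2O2 and 1298 ± 58.7 CPM in siNC.H2O2, and fell by 0.57 and 0.42. The RNA helicase DDX5 rose by 0.39 without H2O2 (978 ± 9.03 CPM in siEP300, 746 ± 11.7 CPM in siNC). With H2O2 its difference was smaller, 953 ± 11.5 CPM in siEP300.H2O2 and 824 ± 37.9 CPM in siNC.H2O2. NCBP2 and HNRNPA1 counts were not whole in any library.

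Changes over 1 on the log2 scale were found on the export side. RAN, the GTPase that loads XPO5, had 287 ± 17.0 CPM in siEP300.H2O2 and 686 ± 66.0 CPM in siNC.H2O2, and 274 ± 6.36 CPM in siEP300 and 678 ± 35.8 CPM in siNC (SD, n = 3 each). RAN fell with H2O2 (-1.26, adjusted p = 1.8e-09, edgeR) and without it (-1.31, adjusted p = 1.2e-09). Its binding protein RANBP1 fell by 1.03 and 1.17, and IPO8, an importin that binds Argonautes, by 0.53 and 0.64. XPO1, the main protein exporter, rose instead, to 680 ± 32.4 CPM in siEP300 against 435 ± 27.4 CPM in siNC (0.64). Of the 8 export and import genes, 1 rose and 4 fell with H2O2, and 2 rose and 4 fell without, against the 30.6% and 31.4% of all genes that fell.

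Among 17 Dicer partners and Argonaute loading factors, 10 rose in each EP300 siRNA comparison, where 28.4% and 30.1% of all genes rose with and without H2O2, and 4 fell with H2O2 and 3 without. The list median was 0.29 with H2O2 and 0.18 without, against -0.02 and -0.00 over all genes. TARBP2, the double-stranded RNA-binding partner of DICER1, went the other way: it had 25.3 ± 1.14 CPM in siEP300 and 41.5 ± 4.45 CPM in siNC, a fall of 0.72 (adjusted p = 0.000109, edgeR). The chaperones known to open Argonautes for loading moved in both directions. HSP90AA1 had 2093 ± 115 CPM in siEP300.H2O2 and 1300.4 ± 90.6 CPM in siNC.H2O2 (0.69), its activator AHSA1 rose by 0.80 and 0.63, and its co-chaperone FKBP5 by 0.94 and 0.59. The paralog HSP90AB1 fell by 0.28 with H2O2, to 1782 ± 80.6 CPM in siEP300.H2O2 against 2159 ± 75.5 CPM in siNC.H2O2, and was not called without it (-0.07). STIP1, which links HSP70 to HSP90, fell by 0.52 and 0.47. ADAR, the main editor of double-stranded RNA, rose by 0.59 without H2O2. HSP90AA1 and ADAR counts were not whole in 10 and 11 libraries.

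**Figure D5:**
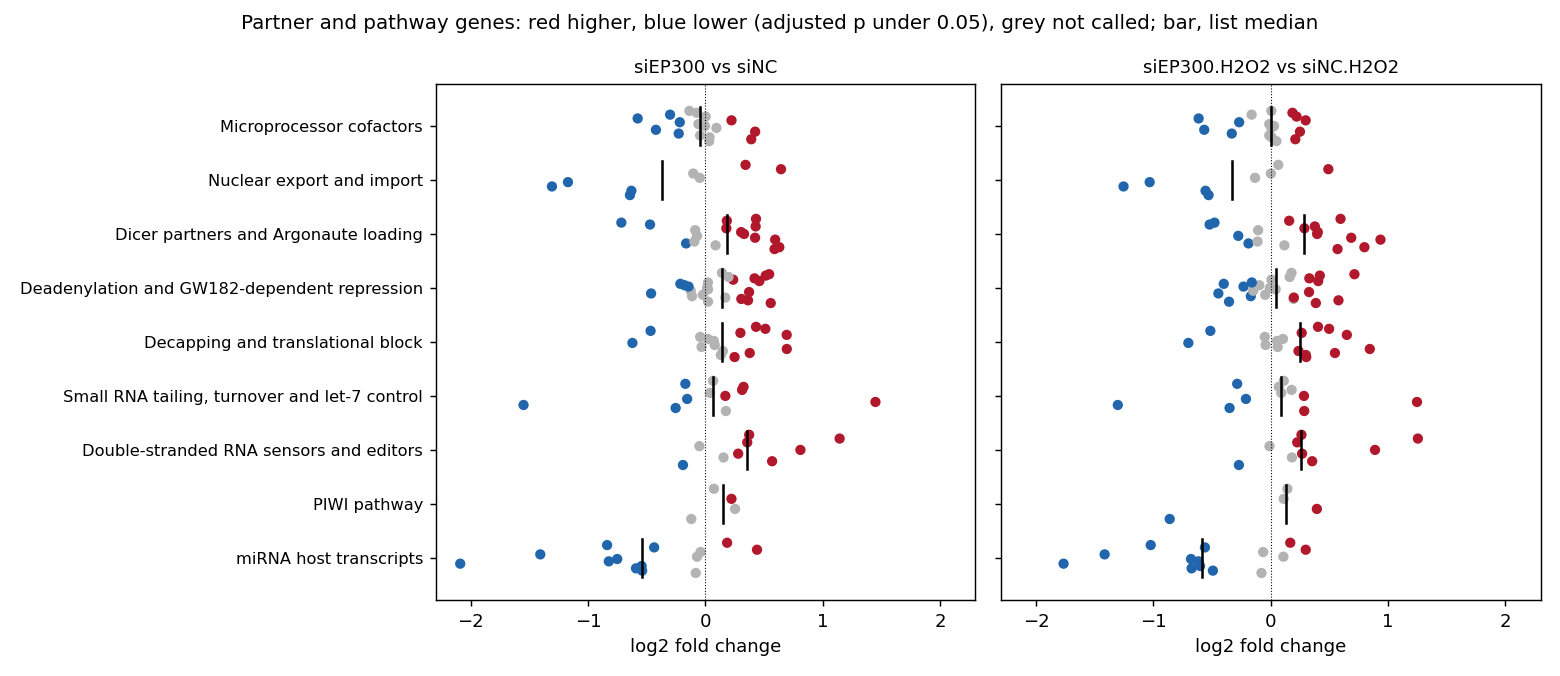
Log2 fold change with EP300 siRNA of each tested gene of the 9 partner and pathway lists, without H2O2 (left) and with H2O2 (right); red is called higher, blue called lower, grey not called, and the vertical bars are list medians. The miRNA host transcripts have the lowest medians (-0.54 and -0.58), and RAN and RANBP1 are the lowest points of the export and import list.

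Downstream of the Argonautes, 8 of 23 deadenylation genes rose and 6 fell with EP300 siRNA and H2O2, and 9 rose and 4 fell without, where 28.4% and 30.1% of all genes rose with and without H2O2. TOB2 and TOB1, adaptors of the CCR4-NOT deadenylase, rose by 0.71 and 0.42 with H2O2 and by 0.54 and 0.51 without, while its subunit CNOT3 fell by 0.45 and 0.46. BTG2, a further adaptor, was the largest H2O2 response of the list. It had 35.2 ± 0.88 CPM in siEP300.H2O2 and 11.1 ± 0.29 CPM in siEP300, and 23.6 ± 1.88 CPM in siNC.H2O2 and 8.64 ± 1.28 CPM in siNC, rises of 1.66 and 1.45. Of 16 decapping and translational genes, 9 rose and 2 fell with EP300 siRNA and H2O2, and 7 rose and 2 fell without, where 30.6% and 31.4% of all genes fell with and without H2O2. The decapping cofactors EDC3 (0.84 and 0.69) and LSM1 (0.65 and 0.69) were among those that rose, and the cap-binding repressor EIF4E2 fell by 0.70 and 0.62.

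Of 11 tested genes of small RNA tailing, turnover and let-7 control, 3 rose and 4 fell with EP300 siRNA and H2O2, and 4 rose and 4 fell without, against 28.4% and 30.1% of all genes higher and 30.6% and 31.4% lower. LIN28A, which blocks maturation of let-7, had 41.0 ± 2.16 CPM in siEP300.H2O2 and 17.3 ± 0.12 CPM in siNC.H2O2, and 35.9 ± 2.73 CPM in siEP300 and 13.1 ± 0.58 CPM in siNC. It rose by 1.25 and 1.45 (adjusted p = 2.65e-09 and 8.28e-10, edgeR). HENMT1, a small RNA methyltransferase known for piRNAs, fell by 1.30 and 1.55, to 8.18 ± 0.75 CPM in siEP300.H2O2 against 20.2 ± 1.84 CPM in siNC.H2O2. The tailing enzymes TUT4 and TUT7 rose by 0.31 and 0.33 without H2O2. Of 9 tested sensors and editors of double-stranded RNA, 6 rose and 1 fell in each EP300 siRNA comparison, where 28.4% and 30.1% of all genes rose with and without H2O2. IFIH1 rose by 0.89 with H2O2 and 0.81 without, and DDX58 by 0.35 and 0.57. Of the PIWI pathway, 4 of 10 genes in the table were abundant enough to test, and PIWIL2, PIWIL3 and PIWIL4 had at most 0.625 CPM in any library.

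Transcripts that host miRNAs were the list with the lowest medians, -0.58 with H2O2 and -0.54 without. Of 32 hosts listed, 14 were in the data and tested. These were protein-coding hosts, and the dedicated miRNA host genes of the list were absent. Of the 14 tested hosts, 9 fell and 2 rose in each EP300 siRNA comparison, where 30.6% and 31.4% of all genes fell with and without H2O2. EGFL7, which hosts miR-126, had 6.89 ± 0.47 CPM in siEP300.H2O2 and 23.5 ± 2.32 CPM in siNC.H2O2, and fell in both comparisons (-1.77 and -2.09). EGFL7 is known from endothelial cells, whose summed markers were also lower with EP300 siRNA (4 of 4 tested fell with H2O2 and 3 of 4 without), and their part in its fall was not tested. MEST, which hosts miR-335, had 180.0 ± 5.45 CPM in siEP300.H2O2 and 480.4 ± 36.0 CPM in siNC.H2O2, and fell in both (-1.42 and -1.41). The small phosphatase genes CTDSPL, CTDSP1 and CTDSP2 host the miR-26 family and fell by 0.60, 0.49 and 0.67 with H2O2 and by 0.54, 0.54 and 0.59 without. SMC4, which hosts miR-15b and miR-16-2, rose by 0.30 and 0.44, and VMP1, which overlaps miR-21, by 0.17 and 0.19. A host mRNA is not a measure of its miRNA.

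The mature miRNAs of these hosts are shown because their seeds group them, with bases 2 to 8 in capitals (RefSeq, GRCh38.p14). The miR-26 members from 3 chromosomes share the seed UCAAGUA, and miR-15b and miR-16 share AGCAGCA.
miR-126-3p: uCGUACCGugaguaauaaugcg
miR-335-5p: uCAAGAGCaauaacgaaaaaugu
miR-26a-5p: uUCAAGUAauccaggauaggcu
miR-26b-5p: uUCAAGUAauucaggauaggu
miR-15b-5p: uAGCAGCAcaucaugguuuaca
miR-16-5p: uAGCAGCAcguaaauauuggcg
miR-21-5p: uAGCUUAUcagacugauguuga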

How the data were processed

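RNA-seq of 12 AC16 libraries was analysed from gene tables. Estimated counts and FPKM were deposited by the authors, per the file headers; HISAT, Bowtie2 and GRCh38.p13 are named per the submitters' processing notes, with no versions, and for the counting tool, annotation and strand setting the sources used here give nothing. Estimated counts were rounded, since 12.0% to 13.8% of values per library were not whole, and FPKM were used as deposited. Groups came from sample titles. Genes passing edgeR's expression filter (13171) were tested with edgeR 4.0.16 (R 4.3.3), quasi-likelihood, TMM scaling, 1 mean per group over all 12 libraries and Benjamini-Hochberg adjustment, and the test was checked on simulated data. Values after ± are SE for log2 fold changes and SD for levels. DESeq2 1.42.0, limma 3.58.1 on log2(FPKM + 1), which understates changes of low genes, other scalings and filters, a per-library lowess correction for gene length and leaving out each library were alternatives. Named list genes were, for each list and comparison, up to 4 called genes of at least 5 CPM with the largest log2 fold change; a list gene named beyond these was chosen after its values were seen. A named list gene given for 1 EP300 siRNA comparison only was not among those 4 in the other, where its change may be smaller or not called. The members, lists and tests were chosen with earlier results of these data known. Positions are from GENCODE v29. Replicate pairs differed beyond sampling noise (chi-square per degree of freedom 1.81 to 18.9). One gene with a pattern like that of a member is not reported here.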

Additional observations from a re-analysis of the deposited data

Results flagged for a closer look

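BTG1, an adaptor of the CCR4-NOT deadenylase, was the list gene whose EP300 siRNA effect differed with H2O2 present, by a test of the difference itself. It had 60.7 ± 1.87 CPM in siEP300.H2O2 and 77.7 ± 7.69 CPM in siNC.H2O2, and 58.7 ± 1.56 CPM in siEP300 and 57.8 ± 1.27 CPM in siNC (SD, n = 3 each). The interaction was -0.38 on the log2 scale (SE 0.10, adjusted p = 0.0455, edgeR). It was called in 7 of 20 alternatives, with values from -0.46 to -0.31. In the main fit BTG1 was the 1 gene called of the 23 deadenylation genes, and each of the other partner and pathway lists had 0 called. The same test called 3.33% of all genes, and 4 of the 10 fibroblast markers, all of them lower.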

How the results depend on the processing

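No paired analysis was possible because replicate numbers 1 to 12 are not shared between groups. Of the 10 genes, 6 were called with EP300 siRNA without H2O2, 3 from FPKM at both pseudocounts and without a filter, 8 with the length trend removed (2 higher, 6 lower), 8 with the within-group axis in the fit (4 higher, 4 lower), and 5 to 6 with a library left out. With H2O2, 7 were called, 5 to 6 from FPKM, 8 with the length trend removed (2 higher, 6 lower), 9 with the axis (4 higher, 5 lower), and 6 to 7 with a library left out. For H2O2 with control siRNA 3 were called, 1 with only the groups compared, and 1 to 3 with a library left out. Over all genes the main fit called 2349 higher and 2298 lower there, and 1746 and 1685 with only the groups compared. For H2O2 with EP300 siRNA 3 were called, 5 with only the groups compared, 1 from FPKM under all 3 settings, 6 with the within-group axis in the fit, and 1 to 5 with a library left out. Over all genes the main fit called 2100 higher and 1995 lower there. The axis fit called 3049 and 2974, only the groups compared gave 2632 and 2587, and FPKM (pseudocount 1) gave 1764 and 2216. The interaction called 439 genes, 1110 with the length trend removed, 1729 with the axis, and 196 to 714 with a library left out; among the 10 genes it called 0, and 1 under each of the first 2 of these. Counts over all genes with a library left out were 7037 to 8059 and 7229 to 8404 for EP300 siRNA with and without H2O2, and 3023 to 4545 and 3612 to 4660 for H2O2 with EP300 and control siRNA. For EP300 siRNA with H2O2 the main fit called 3742 genes higher and 4034 lower. The length correction gave 4251 and 4364, the axis fit 4363 and 4601, and FPKM (pseudocount 1) 3474 and 4088. Without H2O2 the main fit called 3964 and 4139. The same 3 settings then gave 4392 and 4413, 4574 and 4643, and 3218 and 4711.

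These signs turned. AGO1 with EP300 siRNA alone was -0.02 from FPKM (-0.0209, -0.0228 at pseudocount 0.1), -0.27 with the length trend removed, and -0.0895 to 0.138 with a library left out. TNRC6B with the length trend removed was -0.20 with H2O2 and -0.14 without, and with a library left out -0.063 to 0.103 with H2O2. AGO4 with EP300 siRNA alone ran from -0.117 to 0.0258 with a library left out. For H2O2 with control siRNA, FPKM gave AGO1 -0.0161 (-0.0172 at pseudocount 0.1), DROSHA -0.0385 (-0.0399) and TNRC6A -0.0603 (-0.0625). Over all genes that comparison had a median of -0.063 from FPKM at pseudocount 1, against -0.008 from counts. With a library left out, that comparison ran from -0.0683 to 0.154 for AGO1, -0.204 to 0.0642 for DICER1, -0.00602 to 0.0537 for DROSHA, -0.0643 to 0.128 for TNRC6A, -0.162 to 0.133 for TNRC6B and -0.251 to 0.0384 for EP300. The cause was not tested. Called falls of DICER1 and TNRC6A with EP300 siRNA held in all 21 alternatives. Raw counts were at least 266 (AGO4), and the 95% intervals in the text give the ranges of difference compatible with the data.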
